A study of Mus musculus with 2 samples.

Results

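Y RNA genes, the RNA genes of ribonucleases P and MRP, and the 7SL RNA genes make up a set of 6 genes: Rny1, Rny3, Rmrp, Rpph1, Rn7s1 and Rn7s2. They were taken by symbol from a RefSeq table of the mouse assembly GRCm38.p6, which holds 49943 gene records on the assembled chromosomes. Each was set against the 5079 peaks listed for a chromatin immunoprecipitation with an antibody to Usp16, a deubiquitinase of histone H2A. A peak was counted for a gene when it overlapped the gene or the 1 kb on either side of it by 1 bp or more. The genes were chosen with this list of peaks known. The presence, scores and widths of their peaks are therefore a description, with no test.

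The study made 1 library with anti-Usp16 and 1 with IgG. Both came from bone marrow cells positive for ckit and sca1, surface markers by which early blood-forming cells are sorted, of Mx1 Cre:Usp16loxp/loxp mice. In such mice an interferon-inducible promoter drives the recombinase, and the mice behind both libraries carry loxP-flanked Usp16 alleles. Whether the recombinase had been induced is not stated, so the genotype of the sorted cells at Usp16 is not known here. The list gives a position and the peak caller's score for each peak. Its lowest score was 50, its median 70.1 and its highest 2409. Read depth is unknown, the IgG signal was not analysed here, and no replicate stands behind any value. A gene without a listed peak may have carried a weaker signal.

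All 6 genes are copied by RNA polymerase III and give short, abundant RNAs that work with proteins. Y RNAs bind the protein Ro60 and take part in RNA quality control. Ribonuclease P cuts the leader from tRNA precursors, ribonuclease MRP cuts ribosomal RNA precursors, and each has an RNA subunit, encoded by Rpph1 and Rmrp. 7SL RNA is the scaffold of the signal recognition particle, which guides ribosomes to the endoplasmic reticulum. The Y RNA, Rmrp and Rpph1 genes are known for promoters that lie upstream of the transcribed part, often with a TATA box near the start and an octamer farther upstream, while 7SL genes also use sequence inside the gene.

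The RefSeq promoter table held 0 of the 6 genes, but its windows for 2 protein-coding neighbours covered DNA beside Rmrp and Rpph1. The stretches below lie between the annotated genes, wholly inside the listed peaks. They are shown because they hold the DNA that each RNA gene shares with the start of its neighbour. Both are on the plus strand, 5′ to 3′, from RefSeq GRCm38.p6. Capitals mark the octamer ATTTGCAT and the TATA-type motif TATAA, both searched on either strand, and no 2 of the matches overlap.
Rmrp to Ccdc107, chr4:43493115-43493339: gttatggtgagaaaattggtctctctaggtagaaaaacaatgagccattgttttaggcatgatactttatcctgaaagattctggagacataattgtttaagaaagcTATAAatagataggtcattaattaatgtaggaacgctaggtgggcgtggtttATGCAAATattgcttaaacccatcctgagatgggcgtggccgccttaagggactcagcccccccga
Rpph1 to Parp2, chr14:50807772-50807896: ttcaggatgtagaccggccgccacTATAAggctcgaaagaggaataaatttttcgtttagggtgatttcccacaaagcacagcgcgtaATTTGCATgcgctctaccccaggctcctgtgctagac

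The Rmrp stretch was 225 bases long and began 55 bases from the annotated end of Rmrp, so the bases nearest to that gene are not shown. The octamer lay in it on the minus strand, 214 bases from Rmrp and 58 bases from the annotated start of Ccdc107. TATAA lay 162 bases from Rmrp and 113 bases from Ccdc107. The Rpph1 stretch spanned the whole gap of 125 bases to Parp2. TATAA lay 24 bases from the end of Rpph1 that faces Parp2 and 96 bases from Parp2. The octamer lay 88 bases from that end of Rpph1 and 29 bases from Parp2. Both stretches thus held both motifs, at different distances from the RNA gene. Only TATAA in the Rpph1 stretch lay nearer to the RNA gene than to its neighbour. Whether a match belongs to the promoter of the RNA gene or of the neighbour was not tested. Over the same positions of all 32851 promoter windows in the table, the octamer was found in 1.51% for the positions of the Rmrp stretch and in 0.892% for those of the Rpph1 stretch. The same shares for TATAA were 20.7% and 12.7%. Among the 2976 windows that overlap a listed peak, as both stretches do, the octamer shares were 1.38% and 0.739% and the TATAA shares 11.0% and 5.34%. A match describes the letters only, and no binding was measured for the factors known to use them.

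All 6 genes had exactly 1 listed peak within 1 kb, and none shared its peak with another of the 6. For comparison, 10.2% of all 49943 genes had a listed peak by this rule (5094 genes). Among the 6580 genes of 500 bp or less, a class to which all 6 belong, it was 5.33% (351 genes). Nothing is read from the count of 6, since the genes were picked from this list. No peak of the 6 lay near the edge of the window: each covered its whole gene, and the closest further peak stood 2755 bp from Rny3.

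**Figure D1:**
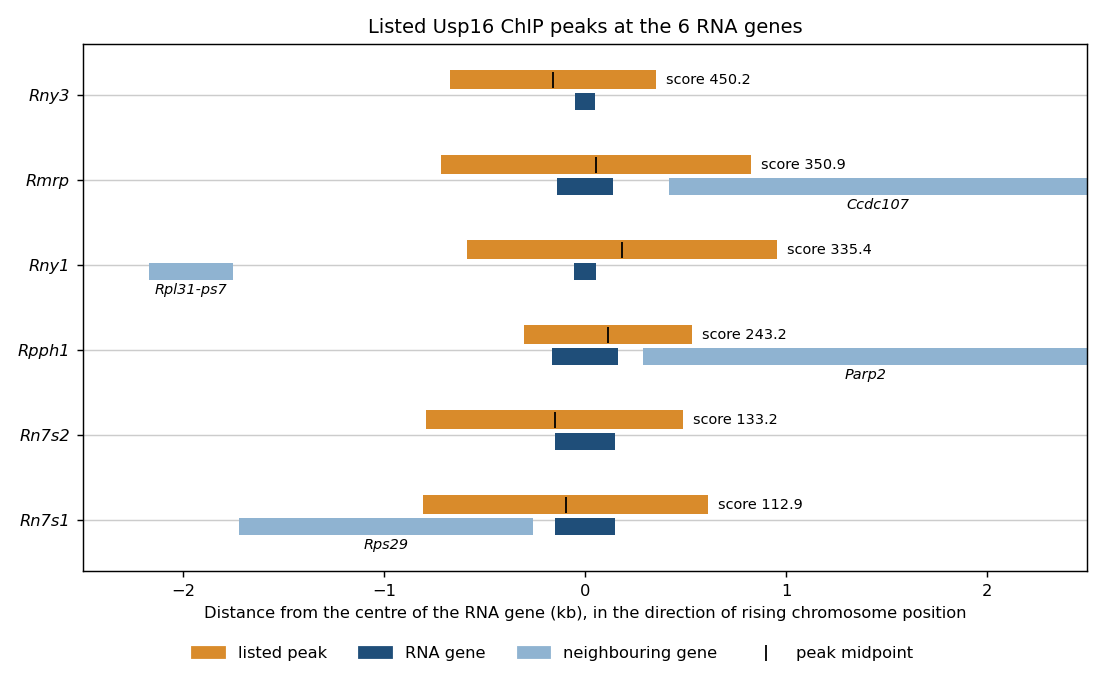
Position of the listed peak at each of the 6 RNA genes, drawn to scale from the centre of the gene (x axis, kb), with the genes ordered by peak score. Each orange bar spans its dark blue gene entirely, and at Rmrp, Rpph1 and Rn7s1 it also reaches a protein-coding neighbour (light blue).

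The Y RNA gene Rny3 (chromosome 6, 47781624 to 47781724) had the highest score of the 6, at 450.2. This peak ranked 34th of the 5079, with 0.65% of listed peaks above it, and spanned 47781001 to 47782027. The second Y RNA gene, Rny1 (chromosome 6, 47788070 to 47788180), had a peak of score 335 from 47787536 to 47789079, ranked 75th. The scores were 6.42 and 4.78 times the median of the list. The genes lay 6345 bp apart and their peaks 5.508 kb apart, with no listed peak between them. The pair thus had separate peaks and not a single broad one.

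The Y RNA genes stood apart from annotated protein-coding genes. Neither peak was within 1 kb of any other gene in the table. Between them lay Rpl31-ps7, a ribosomal protein pseudogene, 1695 bp from Rny1 and 4233 bp from Rny3, with no listed peak within 1 kb. The nearest protein-coding gene of Rny1 was Pdia4, which encodes a protein disulfide isomerase of the endoplasmic reticulum, 7960 bp away and with a separate peak of score 54.3. No protein-coding gene had an end within 10 kb of Rny3. A further peak of score 135 (47777793 to 47778868, 1076 bp wide) lay 2755 bp from Rny3 on its other side, and the table lists no gene within 1 kb of that peak. The locus therefore held 3 listed peaks, 2 of them over Y RNA genes.

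Within each Y RNA peak the gene took up a small part. Rny3, 101 bp long, made up 9.83% of a peak of 1027 bp, which reached 623 bp beyond the gene on the side of lower coordinates and 303 bp on the other. Rny1, 111 bp long, made up 7.19% of a peak of 1544 bp, with 534 bp on the lower side and 899 bp on the higher. The peaks leaned in opposite directions: the midpoint lay 160 bp below the centre of Rny3 and 182.5 bp above that of Rny1. The table gives no strand, so upstream and downstream were not told apart.

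Rmrp, the RNA subunit gene of ribonuclease MRP (chromosome 4, 43492785 to 43493059), had a peak of score 351, ranked 64th, from 43492208 to 43493748. At 5.0 times the list median it lay between the 2 Y RNA genes. The peak was 1541 bp wide, and its midpoint lay 56 bp from the centre of the gene, the smallest distance among the 6. It reached 577 bp beyond Rmrp on the lower side and 689 bp on the higher side. The higher side held the annotated start of Ccdc107, a coiled-coil protein gene 280 bp from Rmrp, and the octamer shown above. The peak thus counted for both genes, and which of them it belongs to cannot be told from its position. Arhgef39, a gene of the guanine nucleotide exchange factor family, and Sit1, a gene for a lymphocyte adaptor protein, lay 3079 and 9075 bp from Rmrp and had no listed peak within 1 kb. No other listed peak stood within 10 kb, and the nearest was 49.2 kb from this one.

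Rpph1, the RNA subunit gene of ribonuclease P (chromosome 14, 50807447 to 50807771), had a peak of score 243, ranked 138th, from 50807304 to 50808142. Its width of 839 bp was the smallest of the 6, and the gene made up 38.7% of it, the largest share. The peak reached 143 bp beyond the gene on the lower side and 371 bp on the side of Parp2, a poly(ADP-ribose) polymerase gene of DNA repair. Rpph1 and Parp2 are known to be transcribed in opposite directions from a shared promoter, and the gap of 125 bp between them, printed above, lay inside the peak. The midpoint was 114 bp from the centre of Rpph1 toward Parp2, still inside Rpph1 and 48 bp from its end. A further, low peak of score 56.3 lay 7183 bp away on the lower side, with no gene within 1 kb in the table.

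The table also lists 3 other genes of the ribonuclease P RNA class, named Rprl1, Rprl2 and Rprl3, which were looked up after the values of the 6 were known. Rprl1 and Rprl2 had no listed peak within 1 kb. Rprl3 (chromosome 8, 3803125 to 3803359) had one of score 74.2 from 3803065 to 3803419, with no other gene within 1 kb. Its score was close to the list median and below all 6 scores. How alike these genes are to Rpph1 in sequence was not examined, and no source used here says how reads matching several copies were placed.

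The 7SL genes had the lowest scores of the 6. Rn7s2 (chromosome 12, 69361183 to 69361481) had a peak of score 133, ranked 646th, from 69360543 to 69361820. Rn7s1 (chromosome 12, 69159295 to 69159593) had one of score 113, ranked 912th, from 69158640 to 69160055. These scores were 1.90 and 1.61 times the list median, and 12.7% and 17.9% of listed peaks scored higher. Both were above the upper quartile of the list, 97.5, and both below the other 4 genes, whose median was 343. 7SL sequence is known to be repeated many times in mammalian genomes, so reads from Rn7s1 and Rn7s2 may match other places, and the handling of such reads was not tested.

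The surroundings of the 7SL genes differed, while the genes have the same length of 299 bp. Rn7s1 lay 108 bp from Rps29, a gene for a protein of the small ribosomal subunit, and the annotated end of Rps29 nearest to it was inside the same peak. Rn7s2 had no other gene within 1 kb of its peak. Its nearest coding gene was Nemf, a factor of ribosome-associated quality control, 3981 bp away and with a separate peak of score 65.0. The score at Rn7s2 was 1.18 times that at Rn7s1. Both peaks leaned to lower coordinates, with midpoints 96.5 bp below the centre of Rn7s1, toward Rps29, and 150.5 bp below that of Rn7s2. The genes were 202 kb apart, and 2 other listed peaks lay between theirs: that at Nemf, and one of score 104 at Lrr1, a leucine-rich repeat protein gene 9220 bp from Rn7s1. The snRNA gene Gm24499, 6917 bp from Rn7s1, and the pseudogene Gm18113, 8032 bp from Rn7s2, had no listed peak within 1 kb.

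Over the 6 genes, 3 peaks (at Rmrp, Rpph1 and Rn7s1) also counted for a protein-coding gene and 3 (at Rny1, Rny3 and Rn7s2) for no other gene. Position alone does not tell which gene the peaks at Rmrp, Rpph1 and Rn7s1 belong to. In the whole list, 31.7% of the 4010 peaks within 1 kb of a gene counted for 2 or more genes. Scores ran from 113 to 351 in the 3 with a coding neighbour and from 133 to 450.2 in the 3 without one. Whether a coding neighbour bears on the score was not tested. In 5 of the 6 cases another listed peak stood within 10 kb of the peak, against 8.92% of all listed peaks on assembled chromosomes. For Rny1 and Rny3, the peak of the other gene is counted there. Separate peaks also stood close together at some snRNA genes. On chromosome 12, LOC115488065 (start 54714218, score 265) and Gm25679 (start 54719163, score 358) are an example. The share was not computed for snRNA or tRNA genes, so a close further peak is not shown to be particular to the 6.

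All 6 peaks were wider than the median peak of 685 bp. Their widths ran from 839 bp at Rpph1 to 1544 bp at Rny1, with a median of 1347 bp. Among the 873 other peaks with scores between those of Rn7s1 and Rny3, the median width was 789 bp (quartiles 636 and 1018 bp). Thus 5 of the 6 were above the upper quartile of peaks in this range of scores, and Rpph1 was within the quartiles. The peak at the 7SK RNA gene Rn7sk, outside the 6, was wider than all of theirs, at 1696 bp. Widths at snRNA and tRNA genes as classes were not compared, so wide peaks are not shown to be particular to the 6. Score and width were weakly related over all 5079 peaks (Spearman rho 0.29), which share 1 library. The lowest-scoring gene of the 6, Rn7s1, had a peak with only 5.47% of the list wider than it.

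**Figure D2:**
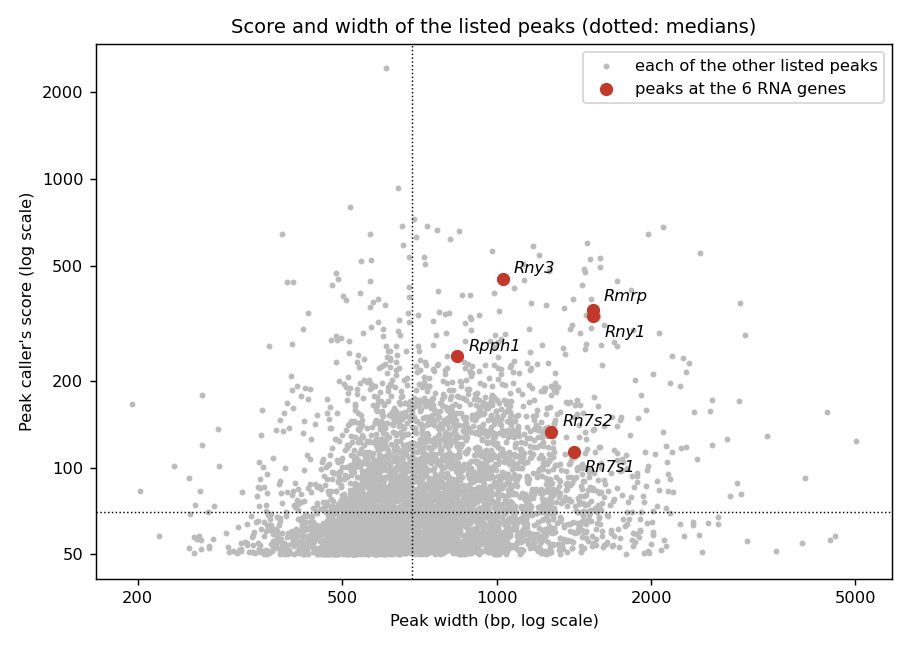
Score against width (bp) of all listed peaks, both on log scales, with the peaks at the 6 RNA genes in red and dotted lines at the medians of the list. All 6 lie above both medians; Rny3 has the highest score at 1027 bp and Rn7s1 the lowest at 1416 bp.

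The position of the gene inside its peak was also compared with other short genes. All 6 genes lay wholly inside their peak. Of the 345 other genes of 500 bp or less with a listed peak within 1 kb, 248 did (71.9%). By class, this held for 137 of the 151 tRNA genes with a peak (90.7%), for 55 of the 63 snRNA genes (87.3%), for 15 of the 51 snoRNA genes (29.4%) and for 18 of the 41 miRNA genes (43.9%). The trait was thus common to most tRNA and snRNA genes with a peak. The distance from peak midpoint to gene centre had a median of 132 bp over the 6 (range 56 to 182.5 bp). It was 269.5 bp over the 345 (quartiles 120.5 and 651 bp), so the 6 distances lay in the lower part of that spread. The 345 genes include snRNA and tRNA genes, some of which share peaks, and also snoRNA and miRNA genes, fewer of which lay inside their peak. The distance was not computed by class, so a central position is not shown to be particular to the 6.

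The 6 genes were also set beside the snRNA and tRNA classes. The snRNA class was not divided by the polymerase that copies its genes, so it is not a comparison with RNA polymerase III genes alone. A listed peak within 1 kb was found for 6.27% of 1004 snRNA genes (63 genes, exact Clopper-Pearson 95% interval 4.86 to 7.96%) and for 37.0% of 408 tRNA genes (151 genes, 32.3 to 41.9%), with intervals that cover counting error only. The snRNA genes with a peak, Rn7sk among them, had a median highest score of 214, and 9 of them scored above Rny3. These 63 genes had 60 distinct peaks, so some of them shared a peak. The tRNA genes with a peak had a median of 96.2 and a highest score of 290, through 88 distinct peaks. Rny3, Rmrp and Rny1 scored above every tRNA gene peak but inside the range of the snRNA genes, whose highest score was 657. The other 3 lay inside the range of both classes. The 6 genes had a median of 289. This value rests on the choice of the genes and was not tested against the classes.

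**Figure D3:**
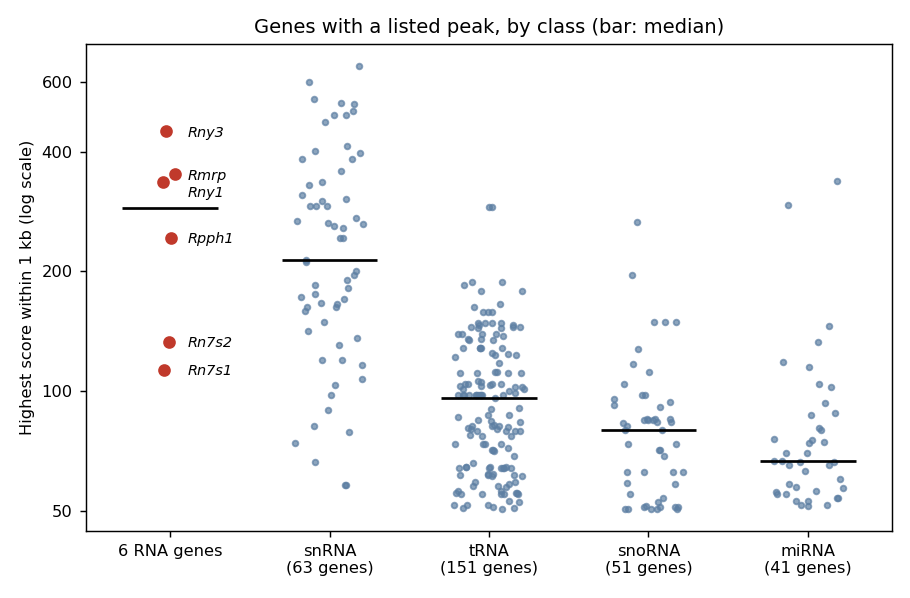
Highest score of a listed peak within 1 kb (log scale) for the 6 RNA genes and for each snRNA, tRNA, snoRNA and miRNA gene that has such a peak, with the class median as a bar. Rny3 lies inside the range of the snRNA genes, whose median is 214, and above all tRNA genes, whose highest value is 290; genes without a listed peak are not drawn.

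Other short RNA genes outside tRNA that RNA polymerase III copies were looked up from a list of names. Of the 10 named symbols, 5 had a row in the table. Rn7sk, the gene of 7SK RNA, which holds the elongation factor P-TEFb in an inactive complex, had a peak of score 272 (chromosome 9, 78175062 to 78176757), between Rny1 and Rpph1. That peak also counted for the lncRNA gene C920006O11Rik. Bc1, a neuronal cytoplasmic RNA gene (chromosome 7, 144914470 to 144914623), had one of score 105, which did not touch the gene and began 152 bp beyond it, and which also counted for the protein-coding gene LTO1. Rnu6, a U6 snRNA gene, Vaultrc5, a vault RNA gene, and Rn5s, a 5S ribosomal RNA gene, had none. None of the 69 records whose symbols begin with n-R5s, the 5S symbols, had one either. The same held for the 63 genes of the rRNA class (0.0%, upper bound of the exact Clopper-Pearson 95% interval 5.69%). That class includes Rn5s and may overlap the n-R5s records, so these are not separate results. 5S genes are present in many near-identical copies, so a missing peak there does not show a missing signal.

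Genes for the proteins that work with these RNAs, or that serve their transcription, were examined as a list of 46 genes. Of these, 20 had a listed peak within 1 kb (43.5%, exact Clopper-Pearson 95% interval 28.9 to 58.9%), beside 17.9% of all 21887 protein-coding genes. The interval covers counting error only, does not allow for how the genes were chosen and is no test against that share. Whether the genes on either side are expressed in these cells was not considered. With only the peaks at or above the median score of the list, 12 of the 46 had one, beside 2188 of the 21887 protein-coding genes (10%). Scores of the 20 ran from 50.9 to 192 with a median of 83.6, and over all protein-coding genes with a peak the median was 73.9. The list was drawn up with other results of this peak list known, so the difference in shares was not tested. The peak covered an annotated end of the gene in 19 of the 20. The exception was Hexim2, whose peak lay inside the gene, 7032.5 bp from its nearer end.

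For the Y RNA proteins, Ro60, which encodes the protein that holds Y RNAs, had a peak of score 119, which also counted for Uchl5, a deubiquitinase gene. Ssb, which encodes the La protein that binds the ends of new RNA polymerase III transcripts, had none. Of 11 genes for proteins of ribonucleases P and MRP, 4 had one: Rpp38 (122), Pop7 (116), Rpp14 (75.6) and Pop4 (58.1). Among the 7 without were Pop1, Pop5 and Rpp21. The peak at Rpp38 also counted for Acbd7 and that at Rpp14 for Htd2. All 4 scores were below those of the peaks at Rpph1, 243, and Rmrp, 351, which also counted for Parp2 and Ccdc107.

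Of 10 genes for the signal recognition particle and its receptor, 4 had a peak. Srp19, whose protein helps assemble the particle on 7SL RNA, scored 192, above both 7SL genes. Srp72 (68.0), Srp9 (54.7) and Srp54a (50.9) were below the list median, and Srp54a was near the lowest score listed. Srp14, Srp54b and Srp54c were among the 6 without. The Srp54a peak also counted for 2700097O09Rik and the Srp9 peak for the lncRNA gene Gm33725. Of 4 genes for proteins of the 7SK complex, Hexim2 had a peak of score 146 and Larp7 one of 57.2, which also counted for Zgrf1, while Hexim1 and Mepce had none.

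Among 19 genes for factors that recruit or restrain RNA polymerase III, 9 had a peak. These held 5 of the 6 subunit genes of TFIIIC, the factor that binds promoters inside tRNA genes. They were Gtf3c6 (191), Gtf3c5 (163), Gtf3c3 (91.6), Gtf3c2 (74.2) and Gtf3c4 (65.1). The Gtf3c6 peak, 2280 bp wide, also counted for the snRNA gene Rnu3a, and the Gtf3c4 peak for Ddx31. For the upstream promoters of the kind found at Y RNA, Rmrp and Rpph1 genes, Snapc5 (128), a subunit gene of the SNAP complex, had a peak, which also counted for the ribosomal protein gene Rpl4. It was the only one of 5 SNAP complex genes with a listed peak, and Snapc1, Snapc2, Snapc3 and Snapc4 had none. Brf2 (96.0), which encodes the TFIIIB subunit used at such promoters, and Pou2f1 (70.0), which encodes the octamer-binding protein Oct-1, had one each. Maf1 (67.4), a repressor of RNA polymerase III, had a peak shared with Sharpin. The 10 without a listed peak were these 4 SNAP complex genes, the TFIIIC gene Gtf3c1, and Bdp1, Brf1, Gtf3a, Tbp and Zfp143. No gene of the 46 reached the score of Rpph1, Rny1, Rmrp or Rny3.

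**Figure D4:**
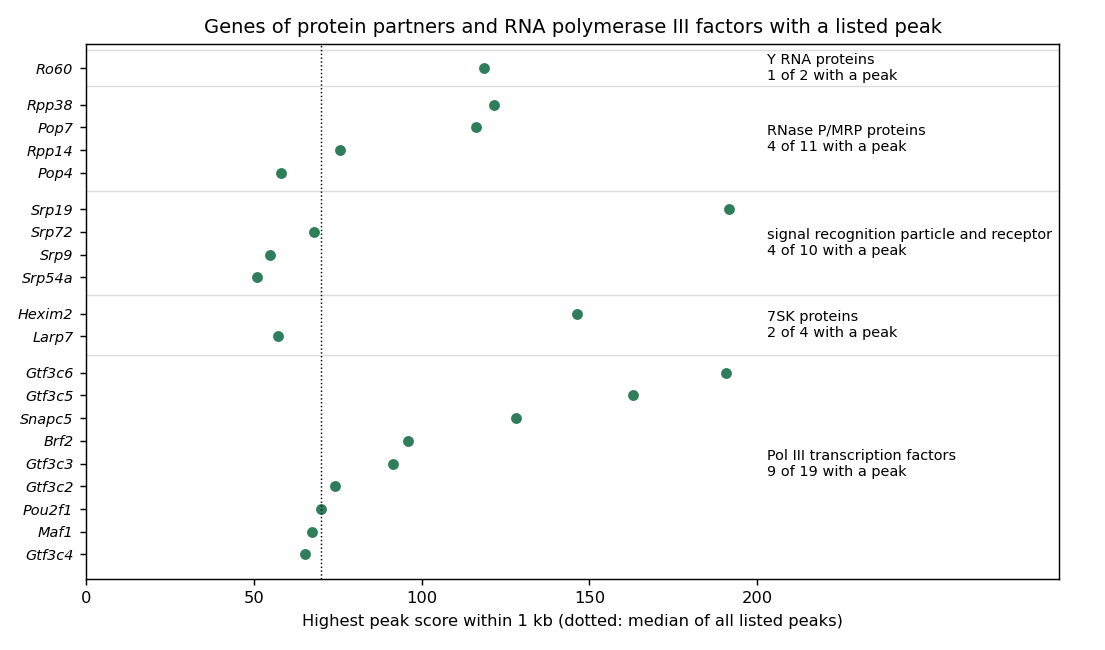
Highest score of a listed peak within 1 kb (x axis) for the 20 genes of protein partners and RNA polymerase III factors that have one, by group, with a dotted line at the median of all listed peaks. Scores run from 50.9 at Srp54a to 192 at Srp19, and 12 of the 20 lie at or above the median, counted without Pou2f1, which lies just below it.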

How the data were processed

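Peaks, with a score for each, were deposited by the authors as 1 list for the anti-Usp16 library, called with MACS run in Galaxy per the file headers. Bowtie, Picard and the mm10 build are named, without versions, per the submitters' processing notes. The MACS version and settings, the scale of the score, the treatment of multiply mapped reads and the use of the IgG library are not stated in any source used here. The score ranks peaks within this list only.

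Starts were made 1-based, and a peak was placed by its midpoint. Peaks on assembled chromosomes (5046 of 5079) were joined to genes of GRCm38.p6 (mm10 is another name of GRCm38) with Python 3.11.15, pandas 2.3.3 and scipy 1.17.1, and the join was tested on simulated data. The gene table has no strand, so the planned distance to gene starts became the distance to the nearer gene end. Alternatives are given in the closing section. The members and lists were chosen with earlier results of these data known. Named were the 6 genes, all genes with an end within 10 kb of one, listed partner and related RNA genes with a peak, and up to 3 per list without one, in alphabetical order. Rprl1 to Rprl3, the other transcription factor genes without a peak and genes that share a peak with a named gene were added after values were seen. Zfp76 had no row in the table.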

Additional observations from a re-analysis of the deposited data

How the results depend on the processing

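All 6 RNA genes kept a listed peak with peaks at or above the median score, with the gene body only and with windows of 500 bp and 5 kb. They also kept it with the midpoint inside the window and with at least 50% of the peak inside it. This outcome was fixed in advance and is no check of the result. Each peak covers its gene, with a midpoint at most 182.5 bp from the gene centre, and the lowest score, 113, is above the list median. The median score of the 6 was 289 in each of the 3 settings in which it was recomputed. The median distance from midpoint to nearer gene end, 66.75 bp, was 0 when the nearest base of the peak was used, because each peak covers its gene. With peaks at or above the median score, the partner genes with a peak fell from 20 to 12, all genes with a peak from 10.2% to 5.69%, and tRNA genes from 37.0% to 26.2%. With the gene body only, related RNA genes with a peak went from 2 to 1 and all genes to 9.29%. Over all genes the share came to 9.85% for 500 bp on either side, 9.89% with the midpoint rule and also with the 50% rule, and 12.9% with a window of 5 kb, which gave 44.1% of tRNA and 8.37% of snRNA genes. No paired analysis was possible because each antibody had 1 library. Read depth, mappability and the IgG level were not analysed here, so the scores carry no error and a missing peak is no measure of absence.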
